A study of Homo sapiens with 6 samples.

Results

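The genes described here are the replication-dependent histone cluster genes of SUM159 cells, an established triple-negative breast cancer line. They were taken as every row whose symbol begins with HIST1H, HIST2H, HIST3H or HIST4H, without rows whose symbol ends in PS or PS and a digit, which gave 76 members of 60675 rows. By class these were 6 linker histone H1 genes, 17 H2A, 23 H2B, 15 H3 and 15 H4 genes. By cluster they were 55 HIST1 genes, all on chromosome 6, 16 HIST2 genes, 4 HIST3 genes and 1 HIST4 gene. In GENCODE release 29 (GRCh38), 70 members were protein-coding and 5 were of a pseudogene type but kept by the rule. The gene identifier given for HIST2H2BC was not found there, although its symbol was, overlapping HIST2H2BD on the opposite strand.

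Polyadenylated RNA was profiled in 3 libraries labelled DAPK3 KO, all from knockout line number 3, and in 3 libraries labelled control, with DAPK3 wild type. DAPK3 is a kinase of the DAPK family, named for roles in cell death, that also acts on myosin. Both groups were the same parental line, grown in Ham's F-12 with insulin (5 µg/mL), hydrocortisone (1 µg/mL), HEPES (10 mM) and 5% serum. A single knockout line was used. Whether libraries with 1 label are separate cultures is not stated, so the p-values given here speak only of the spread among 6 libraries, which may be technical.

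Replication-dependent histone genes encode the bulk of the core histones H2A, H2B, H3 and H4 and the linker histone H1, which package newly copied DNA in S phase. Their usual messenger RNA is the main animal mRNA without a poly(A) tail: it ends a few bases after a conserved stem-loop that is bound by SLBP, and the U7 snRNP directs the cleavage there. Some of these genes also give longer, polyadenylated RNA by reading past the stem-loop, and a library made from poly(A) RNA captures mainly such forms. The stem-loop-ended bulk of histone mRNA is thus largely outside what was measured here.

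The stem-loop itself could be read in the annotated transcripts. The stem-loop consensus, 16 letters of which 3 may be any base, was searched on the transcript strand. It matched 33 of the 75 members whose identifier is in GENCODE 29 (44.0%), against 7 of 58601 other genes (0.0119%). A member without a match may simply have a model that ends before the motif. There were 5 versions of the core: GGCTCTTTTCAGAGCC in 18 members, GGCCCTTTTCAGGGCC in 5, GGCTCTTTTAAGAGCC in 5, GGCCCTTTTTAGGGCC in 3 and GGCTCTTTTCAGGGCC in 2. The following are 8 abundant members with the motif, shown because the results turn on them, in GENCODE 29 transcripts with the stem-loop core in capitals and the 5 bases on each side in lower case. They are written 5′ to 3′ as DNA letters.
HIST1H2AC: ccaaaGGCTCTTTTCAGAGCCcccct
HIST3H2A: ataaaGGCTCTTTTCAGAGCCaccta
HIST2H2BE: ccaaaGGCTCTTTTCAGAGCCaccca
HIST1H3H: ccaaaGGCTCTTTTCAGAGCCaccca
HIST1H2AG: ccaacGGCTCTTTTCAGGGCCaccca
HIST1H2BD: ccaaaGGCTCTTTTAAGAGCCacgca
HIST2H4A: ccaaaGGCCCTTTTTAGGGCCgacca
HIST2H4B: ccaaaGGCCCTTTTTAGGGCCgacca

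The cores are at chr6:26124669-26124684 for HIST1H2AC (plus strand) and chr1:228457369-228457384 for HIST3H2A (minus strand). That of HIST2H2BE is at chr1:149886188-149886203 (minus strand) and that of HIST1H2BD at chr6:26158587-26158602 (plus strand). The cores of the H4 pair are at chr1:149833032-149833047 for HIST2H4A (plus strand) and chr1:149860769-149860784 for HIST2H4B (minus strand). HIST1H2AC, HIST3H2A, HIST2H2BE and HIST1H3H had the same core, the H4 pair had a core with more C and G in the stem, and HIST1H2AG and HIST1H2BD had a core each of another version. In annotated transcripts with the core, the longest tail past it was 1128 nt in HIST1H2AC, 1729 nt in HIST2H2BE and 390 nt in HIST3H2A. It was 1761 nt in HIST1H2AG, 1167 nt in HIST2H4A and 1314 nt in HIST2H4B, but 39 nt in HIST1H2BD. HIST1H2BD also has a model that ends 12799 nt of genome past its stop codon, which the tail of 39 nt leaves out. Each of these tails held at least 1 AATAAA or ATTAAA hexamer, the usual polyadenylation signals.

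The libraries held 16312184 to 22970823 expected counts, with TMM scaling factors of 0.991 to 1.009. DAPK3 RNA, given first as a check of the labels, was 13.1, 27.0 and 11.3 CPM (these are counts scaled to the library total times its TMM factor) in the libraries labelled KO (R1 to R3), against 26.1, 10.6 and 25.9 CPM in those labelled control (R1 to R3). The libraries labelled KO R2 and control R2 thus went against their labels, and an RNA level alone does not give a genotype, since a knockout allele can keep its transcript. The 3 libraries of lowest DAPK3 RNA were those labelled KO R1, KO R3 and control R2. Of the markers expected to be low in this cell type, PGR was at 0 and ESR1 at 0.184 to 0.483 CPM, and ERBB2 was at 52.1 to 96.9 CPM. KRT8, KRT18, VIM, EGFR and CD44 were present in every library. Of the other cell types, the liver and neural markers ALB, APOA1, SOX10 and GFAP were at or near 0, as were CD3E, CDH5 and VWF. The blood and immune list, in which PTPRC, CD14 and HBB had counts, summed to 0.849, 4.84 and 0.659 CPM with the label KO and to 3.75, 0.628 and 4.84 CPM with the label control, highest in the 3 libraries of highest DAPK3 RNA. The endothelial list, nearly all PECAM1, summed to 1.80, 0.858 and 0.439 CPM with the label KO and to 1.61, 1.79 and 1.55 CPM with the label control. The fibroblast list (PDGFRB, COL1A1, DCN), mostly COL1A1, summed to 68.4, 553 and 61.5 CPM with the label KO. With the label control it summed to 520, 75.9 and 649 CPM, highest in the 3 libraries of highest DAPK3 RNA. DCN and HBB were not divided in this way. DCN had 10.1, 6.49 and 4.09 CPM in KO and 13.4, 9.27 and 9.58 CPM in control libraries. HBB had 0.690, 0.368 and 0.571 CPM in KO and 0.341, 0.531 and 1.25 CPM in control libraries.

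Histone cluster RNA was a minor fraction of each library and was concentrated in few genes. All 76 members together had 118.6, 46.7 and 126.5 CPM in the 3 libraries labelled KO, and 55.4, 159.9 and 40.5 CPM in the 3 labelled control, each in the order R1 to R3. The highest sum was thus in a library labelled control, the lowest too, and the 3 highest sums were those of the 3 libraries of lowest DAPK3 RNA. Means were 97.3 ± 44.0 CPM with the label KO and 85.3 ± 65.0 CPM with the label control (SD, n = 3 each), a difference well inside the spread. The 12 most abundant members held 76.5% to 81.9% of the histone CPM of a library.

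**Figure D1:**
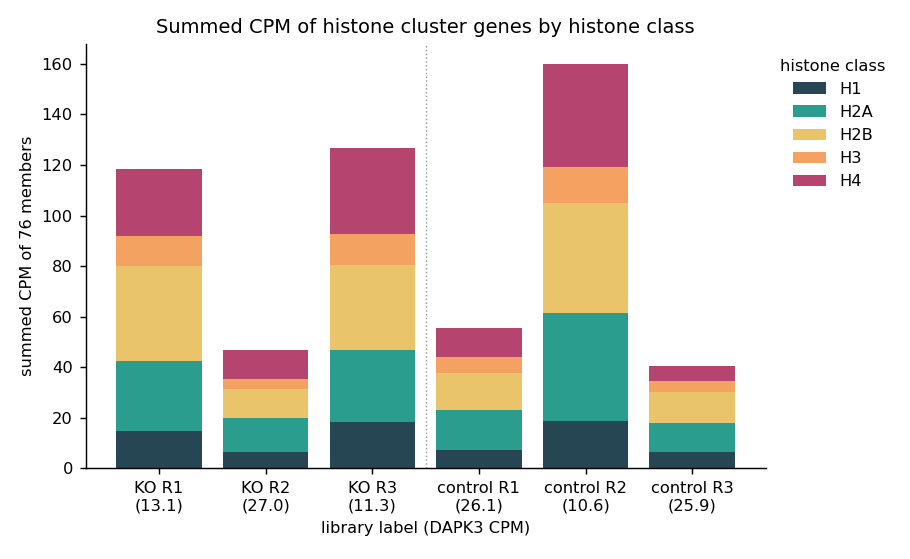
Stacked bars give the summed CPM of the 76 members in each of the 6 libraries, divided by histone class, with the DAPK3 CPM of the library in brackets and libraries labelled KO left of those labelled control. The bars of KO R1, KO R3 and control R2, between 118.6 and 159.9 CPM, stand above the other 3, between 40.5 and 55.4 CPM, with all classes contributing.

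The linker histones H1 summed to 14.6, 6.31 and 18.3 CPM in the libraries labelled KO and 7.06, 18.6 and 6.54 CPM in those labelled control. H2A genes, whose protein pairs with H2B, summed to 27.6, 13.5 and 28.7 CPM with the label KO and 15.9, 42.9 and 11.5 CPM with the label control. H2B sums were 37.7, 11.7 and 33.4 CPM in KO and 14.7, 43.4 and 12.1 CPM in control libraries. In each of these 3 classes the libraries of lowest DAPK3 RNA were the 3 highest. H3 and H4 form the tetramer at the core of the nucleosome, and H3 genes summed to 12.2, 3.68 and 12.2 CPM in KO and 6.28, 14.4 and 4.39 CPM in control libraries. H4 sums were 26.5, 11.5 and 34.0 CPM in KO and 11.5, 40.5 and 6.04 CPM in control libraries. The same held for H3 and H4. By cluster, HIST1 genes summed to 71.7, 25.2 and 72.3 CPM in KO and 35.1, 96.8 and 25.4 CPM in control libraries. HIST2 genes summed to 39.1, 14.9 and 45.95 CPM in KO and 12.8, 54.1 and 9.28 CPM in control libraries. HIST3 genes, nearly all of it HIST3H2A, were much flatter, with 7.48, 6.43 and 8.04 CPM in KO and 7.11, 8.79 and 5.74 CPM in control libraries.

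Of the 76 members, 17 had no count in any library and another 18 had fewer than 10 over all 6, which leaves 41 with 10 or more. A count of 0 in a library allows up to 3 counts, or 0.131 to 0.184 CPM, for counting error alone. Mean CPM reached 1 in 18 members, and 25 passed the expression filter of the fits: 2 of H1, 5 of H2A, 9 of H2B, 5 of H3 and 4 of H4. By cluster, 16 of 55 HIST1, 8 of 16 HIST2 and 1 of 4 HIST3 genes passed, and HIST4H4 did not, with 28 counts in all. Among the members at 0 was HIST1H1B, a linker histone gene, and HIST1H1A had 1 count.

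Per kilobase of annotated exon, the levels of HIST1H1C and HIST1H2BK were highest, at 16.9 and 16.8 CPM per kb averaged over the 6 libraries. HIST3H2A followed at 7.54, HIST1H2AC at 6.48, HIST1H2BD at 4.81, HIST2H4B at 4.69 and HIST2H4A at 4.50 CPM per kb. These ranks rest on annotated lengths, and both leading genes have models that stop at the stop codon, which makes them short.

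Levels differed between members by the annotated end of the transcript. The 22 members with a transcript that ran at least 100 nt past the stem-loop motif had a median of mean CPM of 1.05, none was at 0, 17 passed the filter, and they held 64.4% of the histone CPM. The 34 coding members whose every model ends at the stop codon had a median of 0.0132 CPM, 12 were at 0, 27 had fewer than 10 counts, and only HIST1H1C and HIST1H2BK passed the filter. Those 2 genes made up nearly all of the 20.3% of histone CPM in that class. The other 14 coding members had a median of 0.397 CPM and 14.6% of the histone CPM. The 6 members that are pseudogenes or had no identifier match in GENCODE 29 had 0.723%. These CPM are not divided by model length. Per kilobase of annotated exon, the median was 0.516 CPM in the 22 members with a transcript past the motif. It was 0.715 in the 14 other coding members, then the highest, and 0.0339 in the 34 whose models end at the stop codon. Among those 14, HIST1H2BD, HIST1H2BJ and HIST1H3E have models that end 12799, 6473 and 1908 nt of genome past a stop codon. RSEM counts only reads that fall within its transcript models, and how far a short model lowered a member's count was not tested. The annotation the authors used may also differ from release 29.

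**Figure D2:**
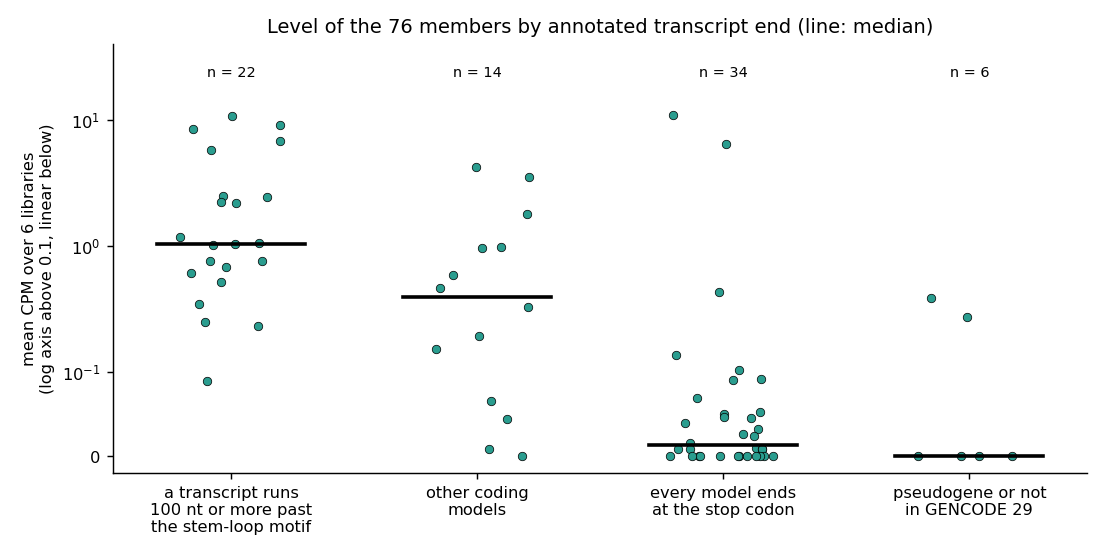
Each point is 1 of the 76 members, with its mean CPM over the 6 libraries (axis logarithmic above 0.1 and linear below) by the end of its annotated transcripts, and the line is the median. Members with a transcript at least 100 nt past the stem-loop motif lie mostly around and above 1 CPM, while 32 of the 34 whose models all end at the stop codon lie below 1 CPM.

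Many core histone genes are arranged head to head, sharing a short promoter between an H2A and an H2B gene. Among members, 13 pairs of start sites on opposite strands lay 139 to 357 nt apart. Not all were of H2A with H2B coding genes. HIST1H2BO was paired both with the H3 gene HIST1H3J and with HIST1H2AM, which overlap, and HIST2H2AA3 with the pseudogene HIST2H2BD. Levels were unequal in several pairs. Others were too low to compare, such as HIST1H2AA and HIST1H2BA, both at 0. HIST1H2AC had 6.48 CPM per kb and HIST1H2BC, with a start 219 nt away, 0.811. HIST2H2BE had 2.65 CPM per kb against 0.267 for HIST2H2AC, HIST1H2BK had 16.8 against 0.116 for HIST1H2AH, and HIST3H2A had 7.54 against 0.221 for HIST3H2BB. In contrast, HIST1H2BJ and HIST1H2AG had 1.03 and 0.992 CPM per kb. In the unequal pairs the lower partners HIST2H2AC and HIST1H2AH have models that end at the stop codon, while HIST1H2BC and HIST3H2BB have longer ones.

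The promoters of members shared short sequence motifs. RefSeq promoter windows on GRCh38.p14, from 250 bases before to 50 after the start, were matched by older symbols for 60 members. CCAAT, on either strand, was in 50 of them (83.3%) against 35.7% of the 27305 promoters of the table, and TATAAA was in 40 (66.7%) against 11.95%. The octamer ATTTGCAT, known as the binding sequence of OCT1 in human H2B promoters, was in 21 (35%) against 1.80%. It was matched in 11 of 16 H2A and 9 of 13 H2B windows, in 1 of 12 H3 and in 0 of 6 H1 and 0 of 13 H4 windows. These matches are not all separate. The H3 match, HIST1H3D, has the same window as HIST1H2AD, and windows of head-to-head genes can overlap, as those of HIST2H2BE and HIST2H2AC do. AAACACA, a motif known from H1 promoters, was in 9 (15.0%) against 5.76% of all windows, 6 of them the 6 H1 windows. None of these motifs contains another, and a match is a description of letters, not of binding. The windows of 3 members of different class, from the HIST1 and HIST2 clusters, are shown, with matches to these motifs on either strand in capitals. The 3 were picked because they moved together. They lie at chr6:26123922-26124221 (plus strand), chr1:149886633-149886932 (minus strand) and chr6:26056421-26056720 (minus strand).
HIST1H2AC: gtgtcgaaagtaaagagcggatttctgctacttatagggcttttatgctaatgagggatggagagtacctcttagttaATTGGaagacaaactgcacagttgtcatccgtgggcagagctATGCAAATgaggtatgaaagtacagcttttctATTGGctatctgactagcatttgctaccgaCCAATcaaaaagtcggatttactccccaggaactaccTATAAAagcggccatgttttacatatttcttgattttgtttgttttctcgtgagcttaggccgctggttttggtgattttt
HIST2H2BE: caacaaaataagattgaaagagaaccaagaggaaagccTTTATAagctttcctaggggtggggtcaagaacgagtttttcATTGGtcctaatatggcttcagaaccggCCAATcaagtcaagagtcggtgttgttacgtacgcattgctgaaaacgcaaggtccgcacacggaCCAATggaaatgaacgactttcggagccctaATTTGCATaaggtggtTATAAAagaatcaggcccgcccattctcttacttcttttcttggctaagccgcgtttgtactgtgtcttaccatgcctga
HIST1H1C: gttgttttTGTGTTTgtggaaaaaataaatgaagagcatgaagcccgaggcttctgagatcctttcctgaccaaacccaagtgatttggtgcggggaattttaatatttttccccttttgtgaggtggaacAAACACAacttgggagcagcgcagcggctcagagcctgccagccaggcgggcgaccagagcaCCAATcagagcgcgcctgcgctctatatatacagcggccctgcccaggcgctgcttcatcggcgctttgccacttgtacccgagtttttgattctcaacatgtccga

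Counting from the RefSeq start, HIST1H2AC has TATAAA at −31 and CCAAT or its reverse complement at −172, −98 and −68. The reverse complement of the octamer is at −130. HIST2H2BE has TATAAA at −30, CCAAT at −142 and −77 and the octamer at −46. The reverse complement of TATAAA is at −212 and that of CCAAT at −170. HIST1H1C has neither TATAAA nor the octamer in this window, but CCAAT at −57, AAACACA at −119 and the reverse complement of AAACACA at −242. The 3 genes, each higher in the 3 libraries of lowest DAPK3 RNA than in the other 3, had CCAAT in common but not all of the other motifs. CCAAT was in all 6 H1, all 16 H2A and all 13 H2B windows. Sharing it was therefore fixed by the classes of the 3 genes and says nothing of their levels.

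Compared by label, no histone cluster gene was called. The fit was edgeR's quasi-likelihood test, 3 libraries a label, over 14613 genes, with calls at a Benjamini-Hochberg adjusted p under 0.05. It called 0 of the 25 tested members, beside a background of 0% higher and 0% lower over all genes. At an unadjusted p under 0.05 there were also 0 members, beside 7.66% of all genes, 3.49% higher and 4.17% lower. DESeq2, which called 78 genes over all, called 0 members, and limma-voom called 0 members and 0 genes in all. The median log2 fold change of the 25 members was −0.03, with 12 positive and 13 negative, beside 0.00 over all tested genes. No tested member had all 3 libraries labelled KO on one side of all 3 labelled control, beside 6.60% of all tested genes above and 6.98% below.

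The most abundant members show how the labels were crossed. HIST1H1C, a linker histone (chr6:26055787-26056428), had 13.7, 5.64 and 16.7 CPM in the libraries labelled KO, against 6.14, 17 and 5.94 CPM in those labelled control. HIST1H2AC, an H2A gene (chr6:26124145-26139116), had 12.6, 4.66 and 14.5 CPM in KO and 5.94, 24.1 and 3.09 CPM in control libraries. The R2 library of each label stood with the R1 and R3 libraries of the other label. For HIST1H2AC this gave means of 10.6 ± 5.21 CPM in KO and 11.03 ± 11.4 CPM in control (SD, n = 3 each) and, as log2 fold change, −0.05 (SE 0.78, edgeR adjusted p = 0.98).

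Among H2B genes, HIST1H2BK had 11.2, 2.21 and 8.30 CPM in KO and 3.12, 10.2 and 3.29 CPM in control libraries. HIST2H2BE (chr1:149884459-149886652) had 9.93, 2.45 and 8.57 CPM in KO and 2.53, 9.42 and 1.95 CPM in control libraries. HIST1H2BD had 7.11, 1.84 and 4.92 CPM in KO and 2.73, 6.71 and 1.85 CPM in control libraries. In all 3 genes the 3 libraries of lowest DAPK3 RNA stood clear of the other 3, with no overlap. HIST1H2BN had 3.29, 1.53 and 3.56 CPM in KO and 1.27, 3.57 and 1.55 CPM in control libraries, the same division of the libraries. Its annotated span overlaps HIST1H2AL on the same strand and HIST1H2AK on the other, so its reads may in part be theirs.

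Of H3 genes, HIST1H3E had 6.48, 0.858 and 4.92 CPM in KO and 1.75, 5.55 and 1.65 CPM in control libraries, again without overlap between the library sets. HIST1H3H was less divided, with 2.23, 1.41 and 3.12 CPM in KO and 2.58, 4.11 and 1.40 CPM in control libraries, so that control R1 stood above KO R1. HIST2H3A and HIST2H3C have identical annotated transcripts and identical values, 1.06, 0.368 and 1.23 CPM in KO and 0.341, 1.26 and 0.299 CPM in control libraries, and are 1 measurement divided equally. HIST1H4H, an H4 gene, had 3.87, 0.551 and 2.68 CPM in KO and 1.41, 4.20 and 0.499 CPM in control libraries.

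HIST2H4A and HIST2H4B also have an identical annotated transcript, and RSEM divides their shared reads by estimate. HIST2H4A had 7.48, 5.33 and 10.2 CPM in KO and 2.92, 22.9 and 1.85 CPM in control libraries. HIST2H4B had 13.2, 4.29 and 18.9 CPM in KO and 4.87, 10.5 and 2.55 CPM in control libraries. HIST2H4A stood above HIST2H4B only in the 2 R2 libraries, so their separate fold changes by label, −0.26 (SE 0.91) and 1.02 (SE 0.66) on the log2 scale, partly follow that division. Their sum was 20.6, 9.62 and 29.1 CPM in KO and 7.79, 33.4 and 4.39 CPM in control libraries, or 0.39 as a log2 fold change (SE 0.77, edgeR adjusted p = 0.90). Each also overlaps an H3 gene on the other strand, HIST2H3C and HIST2H3A in turn, and no strand setting is stated in the sources used here. The near-identical HIST2H2AA3 and HIST2H2AA4 were divided to the point that 1 of the 2 was at 0 in KO R2, control R1 and control R3, and their sum was 4.72, 1.23 and 3.16 CPM in KO and 0.828, 5.41 and 1.20 CPM in control libraries.

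**Figure D3:**
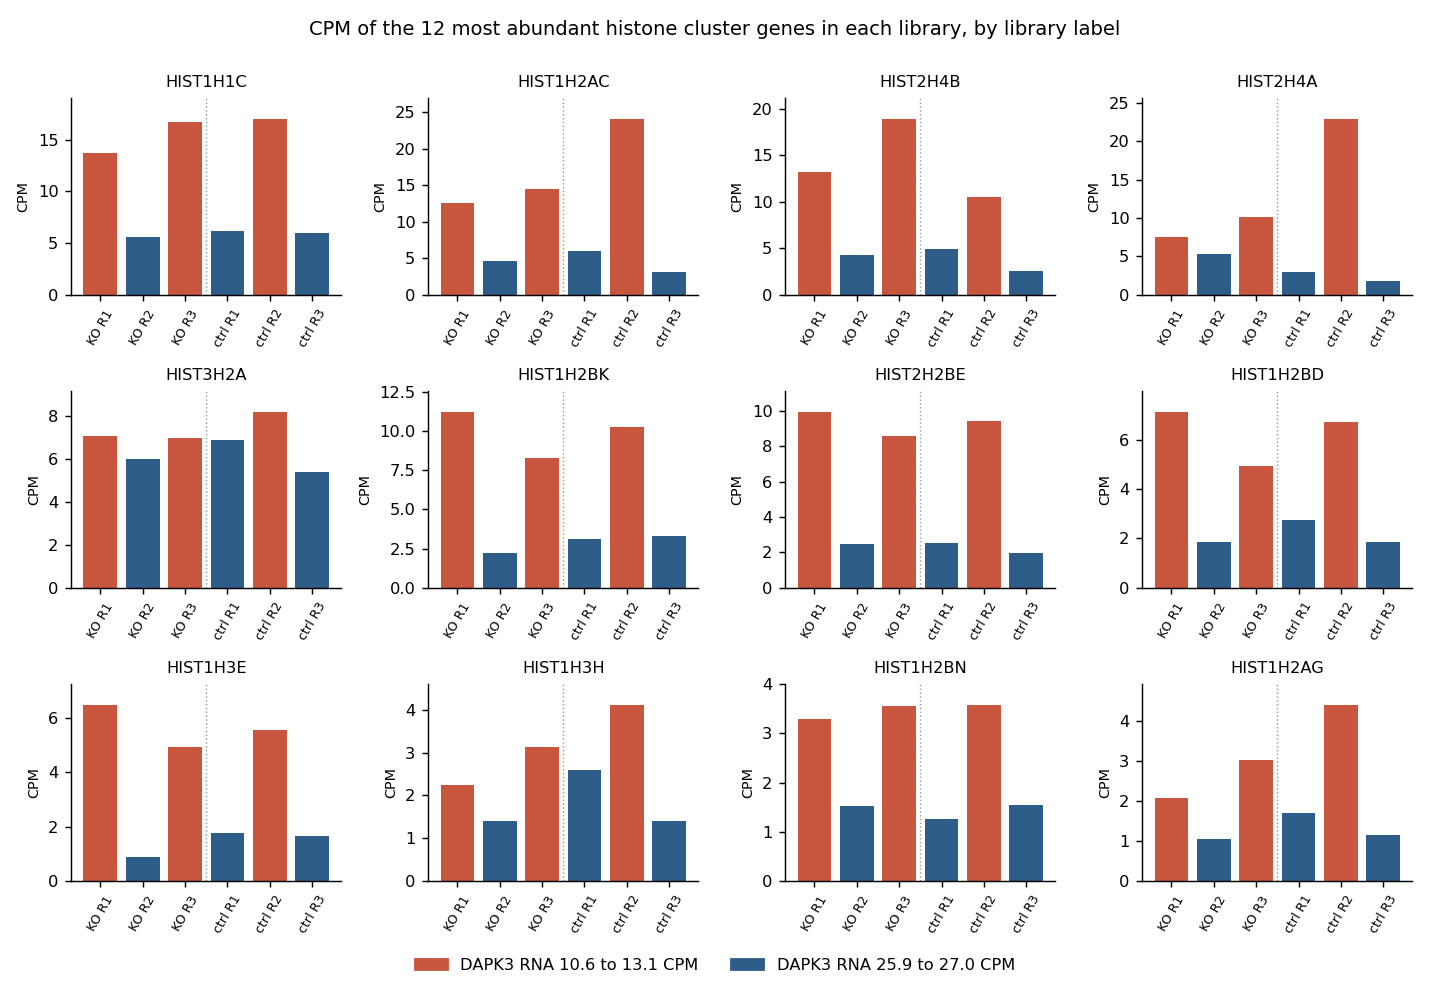
Bars give the CPM of the 12 most abundant members in each library, with libraries labelled KO left of the dotted line and control to its right, coloured by the DAPK3 level of the library. In 11 of the 12 panels the bars of the 3 libraries of lowest DAPK3 RNA are all higher than the other 3; in HIST1H3H control R1 stands above KO R1, and HIST3H2A differs little between libraries.

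The members nearest to a difference by label were also far from one. The smallest unadjusted p was that of HIST2H4B, at 0.168 (edgeR adjusted p = 0.72). Next came HIST1H2BH, with 0.955, 0.735 and 1.32 CPM in KO and 1.02, 2.32 and 0.749 CPM in control libraries (log2 fold change −0.43, SE 0.51), HIST2H2BE (0.60, SE 0.74), HIST1H2BG and HIST1H2BN (0.39, SE 0.51). HIST1H2BG had 0.902, 0.123 and 1.32 CPM in KO and 0.828, 2.75 and 0.399 CPM in control libraries, with a log2 fold change of −0.74 (SE 0.92).

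By DAPK3 RNA level most tested members were divided. In 19 of the 25 tested members the 3 libraries of lowest DAPK3 RNA were all above the other 3, and in 0 were they all below, beside 22.6% of all tested genes above and 21.2% below. A member could pass the filter through 3 libraries in which it was high. The same was also counted with a filter on the mean over all 6 libraries. This does not remove that limit, since high libraries raise the mean too. HIST2H2BF, at 0.399 to 0.674 CPM in the 3 libraries of highest DAPK3 RNA, reached a mean of 1.01 CPM only through the others. Of the 18 members with a mean of at least 1 CPM, 15 were above and 0 below, beside 23.3% and 21.0% of 13297 genes. HIST2H3A and HIST2H3C, a single measurement, are counted separately among the 19. So are HIST2H4A and HIST2H4B, whose shared reads RSEM divides by estimate, both among the 19 and among the 15. The 6 tested members with an overlap were HIST1H3H, HIST1H2BH, HIST1H3G, HIST2H2AA4, HIST1H2BC and HIST1H4E, all at a mean of 2.47 CPM or less. These library sets come from a measured RNA level, so the counts describe the 6 libraries and are no test of DAPK3.

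The size of the step varied. HIST3H2A was the flattest of the abundant members, with 7.06, 6.003 and 6.99 CPM in KO and 6.87, 8.16 and 5.39 CPM in control libraries, and its lowest value among the libraries of low DAPK3 RNA, 6.99 CPM, was barely above the 6.87 CPM of control R1. HIST1H2AG, with 2.07, 1.04 and 3.03 CPM in KO and 1.70, 4.40 and 1.15 CPM in control libraries, was separated by a narrow margin too. HIST2H2BE lay at 8.57 to 9.93 CPM in the 3 libraries of lowest DAPK3 RNA and at 1.95 to 2.53 CPM in the other 3.

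With both R2 libraries left out, 12 histone cluster genes were higher in KO R1 and R3 than in control R1 and R3. The choice of what to leave out was made on DAPK3 RNA, so that label and DAPK3 RNA go together in the rest, and its p-values say nothing apart from that choice about the labels. Of the 25 members tested, 12 were called higher and 0 lower by edgeR, beside 27.3% of 14846 genes, 12.2% higher and 15.2% lower. At an unadjusted p under 0.05, 14 were higher and 0 lower, beside 40% of all genes, 18.7% higher and 21.3% lower. The median log2 fold change was 1.26 in the members, with the median over all genes at −0.02.

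The called members came from all 5 classes. On the log2 scale HIST2H2BE was higher by 2.01 (SE 0.27, edgeR adjusted p = 0.0027) and HIST1H1C by 1.31 (SE 0.21, edgeR adjusted p = 0.0050). HIST1H2BK stood at 1.57 (SE 0.26), HIST1H3E at 1.71 (SE 0.30), HIST1H2BD at 1.36 (SE 0.33) and HIST1H2BN at 1.25 (SE 0.33). HIST1H2AC stood at 1.56 (SE 0.31, edgeR adjusted p = 0.012) and HIST1H4H at 1.74 (SE 0.50, edgeR adjusted p = 0.041). HIST2H4B and HIST2H4A, at 2.08 and 1.86, gave 2.002 (SE 0.30, edgeR adjusted p = 0.0041) as a sum. HIST2H3A and HIST2H3C, each at 1.79, gave 1.80 (SE 0.39) as a sum, and the sum of HIST2H2AA3 and HIST2H2AA4, neither called alone, was called at 1.92 (SE 0.39, edgeR adjusted p = 0.012). With these 3 pairs summed, 11 of 22 rows were called higher and 0 lower. HIST3H2A, at 0.17 (SE 0.24), and HIST1H3H, at 0.40 (SE 0.40), were not called.

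**Figure D4:**
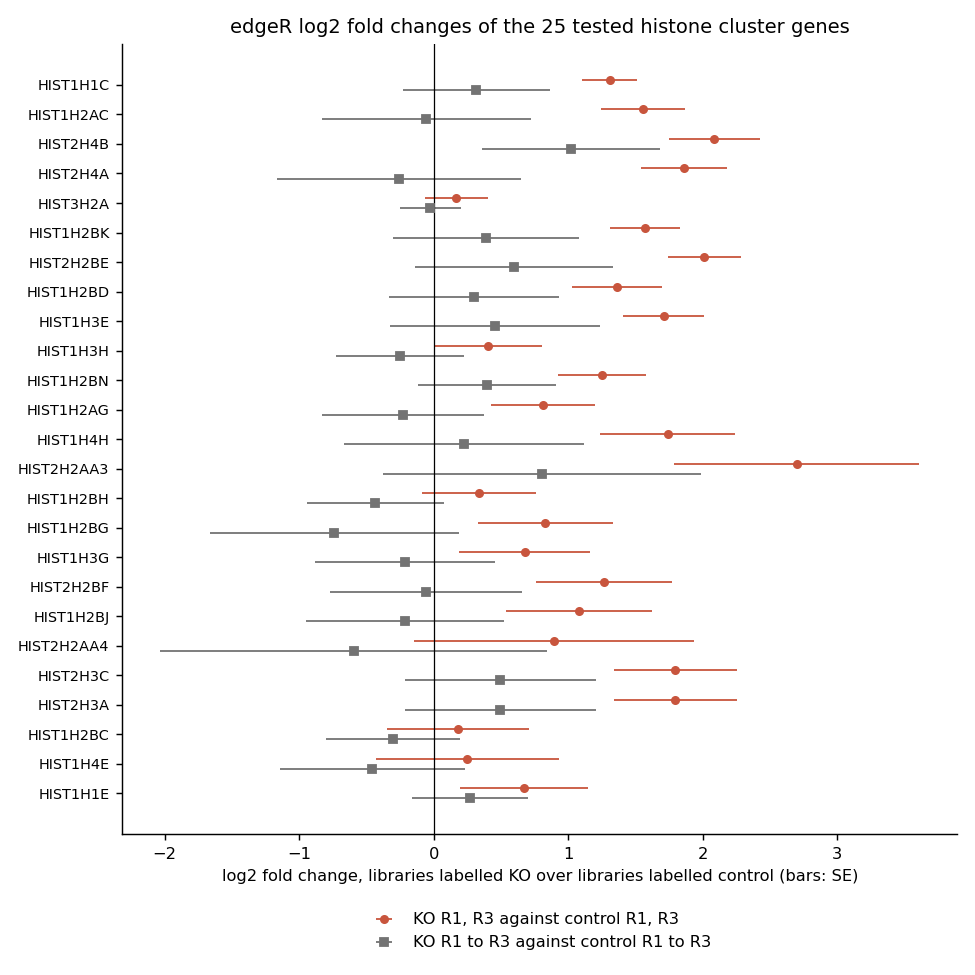
Points give edgeR log2 fold changes of the 25 tested members, KO over control, and bars 1 SE, with circles for KO R1 and R3 against control R1 and R3 and squares for all 6 libraries. The squares scatter around 0 with wide bars, and the circles all lie right of 0, with HIST2H2BE at 2.01 and HIST3H2A at 0.17.

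With the DAPK3 library set added to the label as a covariate in all 6 libraries, the label again gave 0 called members, beside 0% of all genes. At an unadjusted p under 0.05 there was 1 member, HIST1H2BG, with −1.50 on the log2 scale (SE 0.43, edgeR adjusted p = 0.19), beside 15.2% of all genes, 7.71% higher and 7.47% lower. The median of the members was −0.33 in this fit.

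Genes of S phase, the phase in which cluster histones are needed, were divided otherwise. By label, all 64 S phase genes tested had a negative log2 fold change, with a median of −0.56. At an unadjusted p under 0.05, 41 were lower and 0 higher, beside 4.17% and 3.49% of all tested genes. Of the 64, edgeR called 0 and DESeq2 12. In 42 of the 64, all 3 libraries labelled KO were below all 3 labelled control, whereas 9 were all below by DAPK3 RNA level and 0 above. Over all tested genes these shares were 6.98% below by label, and 21.2% below and 22.6% above by DAPK3 RNA level. PCNA, the replication clamp, had 56.6, 50.9 and 62.3 CPM in KO and 126, 91.3 and 129 CPM in control libraries (log2 fold change −1.03, SE 0.17, edgeR adjusted p = 0.63). MCM3 and MCM7, subunits of the replicative helicase, stood at −0.90 (SE 0.21) and −0.73 (SE 0.18), and ORC1, which marks replication origins, at −1.13 (SE 0.23). Relative to each gene's mean over the 6 libraries on the log2(CPM + 0.5) scale, the median histone member stood at 0.40, −0.57 and 0.50 in KO and −0.44, 0.81 and −0.61 in control libraries, and the median S phase gene at −0.58, −0.16 and −0.12 in KO and 0.51, 0.10 and 0.28 in control libraries. When both R2 libraries were left out 39 S phase genes were called lower and 0 higher, beside 15.2% and 12.2% of all genes. The list median was −0.83, the opposite sign to the histone members. The list was chosen with this direction known.

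**Figure D5:**
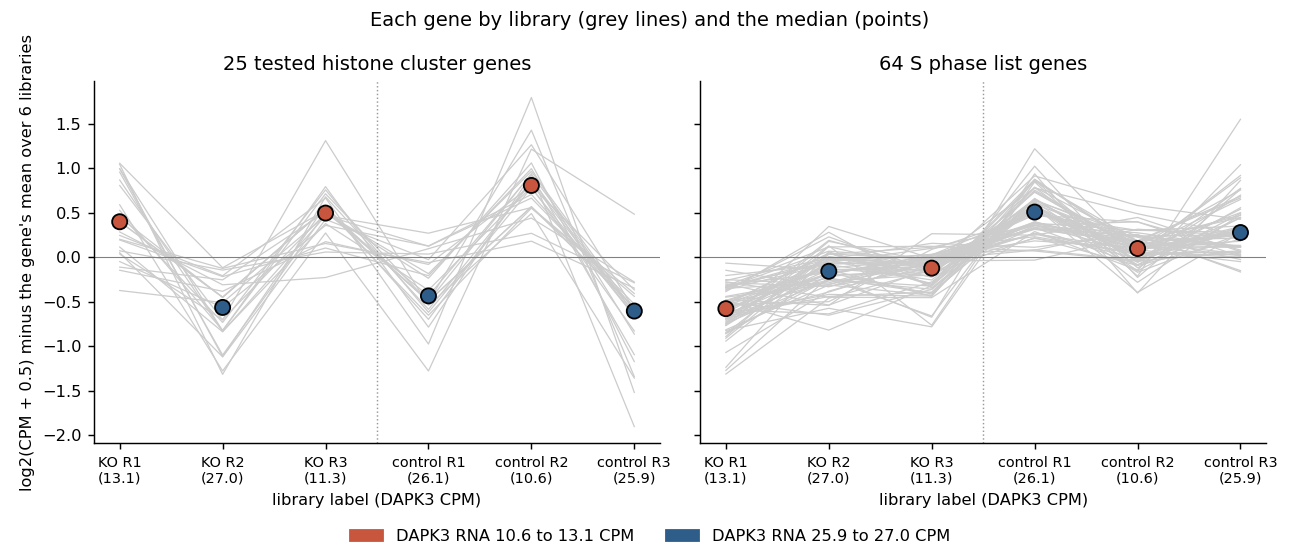
Lines are genes, plotted in each library as log2(CPM + 0.5) minus the gene's mean over the 6 libraries, for 25 histone members (left) and 64 S phase genes (right), and the points are medians coloured by DAPK3 level. Histone medians are between 0.40 and 0.81 in KO R1, KO R3 and control R2 and between −0.61 and −0.44 in the others, while S phase medians are negative in the 3 libraries labelled KO and positive in the 3 labelled control.

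Replication-independent histone genes, whose RNA is polyadenylated, showed no common direction. Of 19 listed, 10 were tested, edgeR, DESeq2 and limma-voom called 0 by label, and the median log2 fold change was −0.02. At an unadjusted p under 0.05, 1 was higher and 2 lower, beside 3.49% and 4.17% of all tested genes. Of the 10, 1 had all 3 libraries labelled KO above all 3 labelled control and 3 had them below. Over all tested genes these shares were 6.6% and 6.98%. H3F3B, which encodes the replacement histone H3 deposited outside replication, had 561, 484 and 524 CPM in KO and 373, 441 and 383 CPM in control libraries (0.39, SE 0.11, edgeR adjusted p = 0.63). H2AFZ, the H2A variant at promoters, had 292, 281 and 348 CPM in KO and 405, 392 and 354 CPM in control libraries (−0.32, SE 0.12). H2AFX, the variant phosphorylated at DNA breaks, whose RNA can end at a stem-loop like that of the members or be polyadenylated, had 24.1, 40.4 and 32.0 CPM in KO and 69.2, 42.6 and 63.4 CPM in control libraries (−0.86, SE 0.26). Without both R2 libraries 2 of the 10 were called higher and 2 lower, H3F3B at 0.49 and H2AFX at −1.27 among them. Over all genes 12.2% were called higher and 15.2% lower in that fit. By DAPK3 RNA level, 2 of the 10 were all above and 1 all below, beside 22.6% and 21.2% of all tested genes.

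Genes for the 3′ end processing of histone mRNA, its locus body and the cap and decay factors had a median near 0 by label. Of 38 tested, edgeR, DESeq2 and limma-voom called 0 by label, and the median was −0.01. At an unadjusted p under 0.05, 2 were higher and 5 lower, beside 3.49% and 4.17% of all tested genes. In 2 all 3 libraries labelled KO were above all 3 labelled control and in 10 below, beside 6.6% and 6.98% of all tested genes. SNRPE, an Sm protein of snRNPs, had 50.1, 49.2 and 53.3 CPM in KO and 70.7, 71.1 and 66.0 CPM in control libraries (log2 fold change −0.45, SE 0.10). CDK2, the S phase kinase that acts on NPAT, stood at −0.76 (SE 0.17), and SSRP1 and SUPT16H, both subunits of the chaperone FACT, at 0.07 (SE 0.16) and −0.30 (SE 0.13). SLBP, the stem-loop binding protein, had 72.4, 59.7 and 72.9 CPM in KO and 72.4, 74.0 and 83.8 CPM in control libraries, and NPAT, the activator of histone transcription, 29.9, 20.9 and 30.2 CPM in KO and 21.6, 26.0 and 20.1 CPM in control libraries. SLBP and NPAT were singled out after their values were seen. By DAPK3 RNA level, 9 of the 38 were all above and 6 all below, beside 22.6% and 21.2% of all tested genes. NPAT was among those 9, higher in each of the 3 libraries of lowest DAPK3 RNA than in the other 3. SLBP overlapped between the library sets. With both R2 libraries left out 5 of the 38 were called higher and 8 lower, beside 12.2% and 15.2% of all genes.

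Histone chaperones, which carry new histones to DNA, had 0 of 23 genes called by edgeR and 2 by DESeq2 by label, and a median of −0.10. At an unadjusted p under 0.05, 0 were higher and 6 lower, beside 3.49% and 4.17% of all tested genes. In 1 all 3 libraries labelled KO were above all 3 labelled control and in 6 below, beside 6.6% and 6.98% of all tested genes. ASF1B, which hands H3 and H4 to the replication machinery, had 18.6, 18.9 and 19.2 CPM in KO and 45.3, 27.3 and 37.4 CPM in control libraries (log2 fold change −0.96, SE 0.21). MCM2, a helicase subunit that also binds histones and is in the S phase list too, stood at −0.64 (SE 0.13), and the abundant RBBP7 and NAP1L1 at −0.10 (SE 0.10) and −0.05 (SE 0.13). With both R2 libraries left out 2 of the 23 were called higher and 8 lower, beside 12.2% and 15.2% of all genes.

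Because cluster histone mRNA mostly lacks a poly(A) tail, other RNA without one was measured beside it. RN7SK, RN7SL1, RN7SL2, RMRP and RPPH1 together had 16.8, 10.7 and 10.7 CPM in the libraries labelled KO and 24.6, 10.0 and 24.6 CPM in those labelled control. The part of such RNA in the histone result was not tested. The 13 mitochondrial protein transcripts summed to 53778, 44488 and 41996 CPM in KO and 44132, 47306 and 68480 CPM in control libraries. The fibroblast and blood marker sums given above, though not DCN or HBB within them, were high in the 3 libraries in which the histone sum was low. The part of these markers in the result was not tested. In bulk RNA, fewer cells with histone RNA and less of it per cell cannot be told apart, and neither can a difference due to DAPK3 and one particular to the single knockout line or to the set of libraries.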

How the data were processed

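The deposited values are expected counts, as RSEM estimates them per gene, and are not normalized. RSEM, Bowtie2, edgeR and the GRCh38 build are named in the submitters' processing notes; no version, annotation release or strand setting is given in the sources used here. Expected counts were rounded to whole numbers and scaled to CPM with TMM factors. Values of 18 members were not whole in some library, because RSEM divides shared reads by estimate.

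Libraries labelled KO and control were compared (3 each, not moved by their DAPK3 RNA) with edgeR 4.0.16 (R 4.3.3): quasi-likelihood test, filterByExpr, no block, Benjamini-Hochberg adjustment over all genes tested. Each SE is the fold change divided by the root of F. The steps were tested on simulated data. Alternatives were RLE and library-size scaling, other filters, unrounded counts, DESeq2 1.42.0, limma-voom (limma 3.58.1), the replicate number as a block, the DAPK3 library set as a covariate, each library left out and both R2 libraries left out. Summing near-identical pairs and restricting to members tested in both fits were added after seeing the data.

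The members and all gene lists were chosen with earlier results of these data known. Named members were the 12 of highest mean CPM, the 5 of smallest unadjusted p, those called without both R2 libraries and HIST1H2AC; up to 4 genes per list were the 2 of highest mean CPM and the 2 of smallest unadjusted p. Transcripts and gene coordinates are from GENCODE 29 (GRCh38) and promoters from RefSeq (GRCh38.p14); no genome sequence was used here. Depth was 16312184 to 22970823 expected counts per library; floors of 3 counts cover counting error only.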

Additional observations from a re-analysis of the deposited data

How the results depend on the processing

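The 0 calls by label among histone members held under RLE and library-size scaling, both other filters, unrounded counts, DESeq2, limma-voom, an adjusted p under 0.10 and each library left out. Summed CPM kept their order over the libraries under each scaling and without HIST1H1C, and the count of members above by DAPK3 RNA was 20 with library-size scaling. At an unadjusted p under 0.05 there was 1 member with no filter and 1 with the library set as a covariate.

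Same-numbered libraries deviated in opposite directions (r = −0.68, −0.86 and −0.73 for R1, R2 and R3). At each number 1 library was of low and 1 of high DAPK3 RNA, so these values cannot tell whether the replicate numbers pair the libraries. With the number as a replicate block 0 members and 0 genes were called, and the median of the members was 0.40. The median by label, −0.03, is near 0 and turned positive in other fits too: 0.33 by limma-voom, 0.30 with a filter of 1 CPM in every library of 1 label and 0.10 with unrounded counts or pairs summed.

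Without both R2 libraries 12 members were called (14 at an unadjusted p under 0.05; median 1.26), with 39 S phase genes (median −0.83), 4 variants, 13 processing genes (median −0.047), 10 chaperones (median −0.20) and 4055 genes in all. DESeq2 called 12 S phase genes, 2 chaperones and 78 genes over all 6 libraries. The processing median was −0.045 with the set covariate. The cause of these differences was not tested.

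Signs of named genes changed as follows. With the set covariate the log2 fold changes were −0.12 for HIST1H1C, −0.26 for HIST1H2BK, −0.22 for HIST1H2BD, −0.33 for HIST1H3E, −0.50 for HIST1H4H and −0.016 for HIST2H3A and HIST2H3C. With the block HIST1H2AC stood at 0.45 and HIST2H4A at 0.69; by limma-voom they stood at 0.35 and 0.58, and HIST2H4A summed with HIST2H4B at 0.39. Without both R2 libraries the values were 1.56 for HIST1H2AC, 1.86 for HIST2H4A, 0.17 for HIST3H2A, 0.40 for HIST1H3H, 0.81 for HIST1H2AG, 0.34 for HIST1H2BH and 0.83 for HIST1H2BG.

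With each library left out in turn, 0 to 3 members had an unadjusted p under 0.05, 3 of them without control R2, and the median of the members ran over −0.21 to 0.97, the highest again without control R2. The list medians ran over −0.70 to −0.43 for S phase, −0.12 to 0.083 for variants, −0.067 to 0.0043 for processing genes and −0.17 to −0.077 for chaperones. Log2 fold changes ran over −0.0067 to 0.97 for HIST1H1C, −0.50 to 1.21 for HIST1H2AC, −0.75 to 1.66 for HIST2H4A, −0.18 to 0.10 for HIST3H2A, −0.080 to 1.15 for HIST1H2BK, −0.15 to 0.99 for HIST1H2BD. They ran over −0.044 to 1.24 for HIST1H3E, −0.57 to 0.16 for HIST1H3H, −0.64 to 0.50 for HIST1H2AG, −0.73 to 0.16 for HIST1H2BH, −1.35 to 0.35 for HIST1H2BG and −0.32 to 1.29 for HIST1H4H. HIST2H4B, HIST2H2BE, HIST1H2BN, HIST2H3A and HIST2H3C stayed positive with each library left out.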

Other observations

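Of the 13 rows left out by symbol as histone pseudogenes, 3 had any count, with 14 expected counts over all 6 libraries and at most 7 in 1 row. Of the 2 members in which all 3 libraries labelled KO were below all 3 labelled control, HIST1H4B had 8 counts in all and HIST1H2BI had 4, none of them in a library labelled KO, and neither was tested.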
